A study of Mus musculus with 27 samples.

Results

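Neuropilins, plexins and semaphorins form a ligand and receptor family of which 10 genes are described here: the neuropilins Nrp1 and Nrp2, the plexins Plxna1, Plxna4, Plxnb2, Plxnc1 and Plxnd1, and the class 4 semaphorins Sema4a, Sema4b and Sema4d. They were chosen by gene symbol, with earlier results of these data known, as 10 of the 50559 genes in a table of raw counts. How many of the 10 were called, set beside the share over all genes, is therefore a description and not a test. All 10 passed the filter on low counts, Plxna4 only through its M2 libraries, since no Mφ library held more than 7 of its counts. The counts came from 3′ RNA-seq of bone marrow-derived macrophages (BMDMs) of female C57BL/6 mice aged 3 to 4 months that were either WT or lacked TRAP1 (TRAP1 KO). TRAP1 is a mitochondrial chaperone of the HSP90 family. Unpolarized macrophages (Mφ) received no IL-4, and M2 macrophages were made by 24 h with 10 ng/ml IL-4. Each was kept for 48 h either in medium conditioned by a murine malignant peripheral nerve sheath tumor line (MPNST-CM) or in control medium (DMEM), replaced once after 24 h. This gave 8 groups of 3 libraries: WT Mφ, WT M2, TRAP1 KO Mφ and TRAP1 KO M2, each in control medium and in MPNST-CM. All cells were grown with L929-conditioned medium as the source of M-CSF, so the control cells carry that exposure too, and the labels do not say whether the libraries of a group came from separate animals. The tests therefore measure the spread between these libraries, which may be technical.

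Neuropilins are co-receptors that lack a signalling domain of their own and bind class 3 semaphorins and vascular endothelial growth factors together with plexins or VEGF receptors. Plexins are the transmembrane receptors of semaphorins; their cytoplasmic part acts on small GTPases and thereby on the cytoskeleton and adhesion. Class 4 semaphorins are membrane-bound ligands, known in immune cells for contacts between macrophages, dendritic cells and lymphocytes.

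Promoter windows are shown for Plxnd1 and Sema4a, which the genotype by medium test passed in both Mφ and M2 at a level of 5 CPM or more, where CPM is the count scaled to a common library size,, and for Nrp2, which MPNST-CM moved in opposite directions in WT Mφ and WT M2. Each runs from 250 bases before to 50 bases after the annotated start in the RefSeq annotation of GRCm38.p6, 5′ to 3′ on the strand of the gene, with matches to GCGTG or ACGTG, the core letters bound by hypoxia-inducible factors, in capitals. RefSeq windows were matched for 8 of the 10 genes, the others being Plxna1 and Plxna4. Plxna1 also met the rule given for Plxnd1 and Sema4a, and is not shown because it had no window. Sema4b had 2 listed windows and Sema4d 3, of which only the first was searched. The shares over all windows given below count every listed window. The Nrp2 window is at chr1:62703067-62703366 (plus strand), the Plxnd1 window at chr6:115994956-115995255 (minus strand) and the Sema4a window at chr3:88461133-88461432 (minus strand).
Nrp2: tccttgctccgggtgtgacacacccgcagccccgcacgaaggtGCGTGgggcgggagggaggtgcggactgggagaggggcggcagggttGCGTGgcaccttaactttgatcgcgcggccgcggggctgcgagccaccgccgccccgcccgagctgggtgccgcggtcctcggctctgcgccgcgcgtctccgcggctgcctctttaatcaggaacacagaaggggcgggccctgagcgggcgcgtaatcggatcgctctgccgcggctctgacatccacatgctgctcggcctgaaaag
Plxnd1: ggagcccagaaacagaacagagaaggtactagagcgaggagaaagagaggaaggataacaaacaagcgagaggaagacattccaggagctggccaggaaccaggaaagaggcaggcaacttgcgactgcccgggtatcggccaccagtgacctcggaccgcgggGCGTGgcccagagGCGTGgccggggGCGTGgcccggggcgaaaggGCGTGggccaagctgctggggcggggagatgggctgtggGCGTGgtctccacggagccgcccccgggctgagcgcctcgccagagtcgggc
Sema4a: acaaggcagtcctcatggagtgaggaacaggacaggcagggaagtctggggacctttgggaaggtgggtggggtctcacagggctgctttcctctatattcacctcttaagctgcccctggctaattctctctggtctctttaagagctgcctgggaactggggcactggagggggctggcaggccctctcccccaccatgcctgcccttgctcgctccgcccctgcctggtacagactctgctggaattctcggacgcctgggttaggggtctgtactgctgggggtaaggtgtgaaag

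On both strands, GCGTG was found in 4 of the 8 windows, those of Nrp1, Nrp2, Plxnc1 and Plxnd1, and in 32.4% of 32851 RefSeq promoter windows of the same length. The Plxnd1 window held 5 copies, starting at positions 165, 178, 190, 210 and 249, and 0.463% of all windows held 5 or more. The Nrp2 window held 2 copies, a number reached by 11.1% of all windows. ACGTG was found in 2 of the 8 windows, those of Sema4b and Sema4d, against 19.6% of all windows. The Sema4a window held neither. Of motifs bound by other factors, TGANTCA (AP-1) was found in the Sema4d window only, against 7.81% of all windows, and the STAT motifs with TTC and GAA 4 or 3 bases apart in none of the 8, against 6.95% and 8.30% of all windows. These 3 motifs read alike on both strands. A match is a run of letters and no evidence of binding.

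The 24 libraries compared held between 7037684 and 9089792 counts (batch 1), and each correlated best with its own group. Trap1 had 0 counts in all 12 TRAP1 KO libraries and between 83 and 144 in the 12 WT libraries. The TRAP1 KO libraries of batch 1 nearly lacked Xist, with at most 1.14 CPM against at least 268 CPM in each WT library, although all mice are labelled female. Genotype and this difference cannot be told apart here, and every result that sets TRAP1 KO against WT rests on these libraries; the 10 genes are autosomal. All 8 macrophage markers were detected in every group, with a summed level between 7893 and 12321 CPM. Of the other cell types listed, the summed level was highest for endothelial markers (30.2 to 72.3 CPM over the groups), carried by Kdr and Vwf, with Tek at 0 in every group and Cdh5 at a mean of no more than 0.843 CPM in any. Dendritic cell markers summed to 5.07 to 19.7 CPM, Schwann cell markers to 1.32 to 8.26 CPM, mast cell and basophil markers to at most 7.90 CPM, fibroblast markers to at most 4.35 CPM, neutrophil markers to at most 4.12 CPM and lymphocyte markers to at most 0.529 CPM. Schwann cell markers were at 6.34 to 8.26 CPM in TRAP1 KO M2 in control medium and at 3.63 to 4.36 CPM in WT M2. Within groups, 6 libraries stood apart from both others: replicate 1 of the 4 Mφ groups and of WT M2 in MPNST-CM, and replicate 2 of TRAP1 KO M2 in control medium. Their pairs had a chi-square of 10.8 to 37.4 per degree of freedom, and the pairs of the other 2 libraries 2.11 to 4.26. A fit of the 18 libraries left without them, chosen after the data had been seen, is named below where it ends a call or moves a count by over 1.5 times. Batch 2 holds 3 further libraries, of which the 2 TRAP1 KO M2 libraries did not resemble their groups. Batch 2 entered no test reported here, and its effect is given with the processing.

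**Figure D1:**
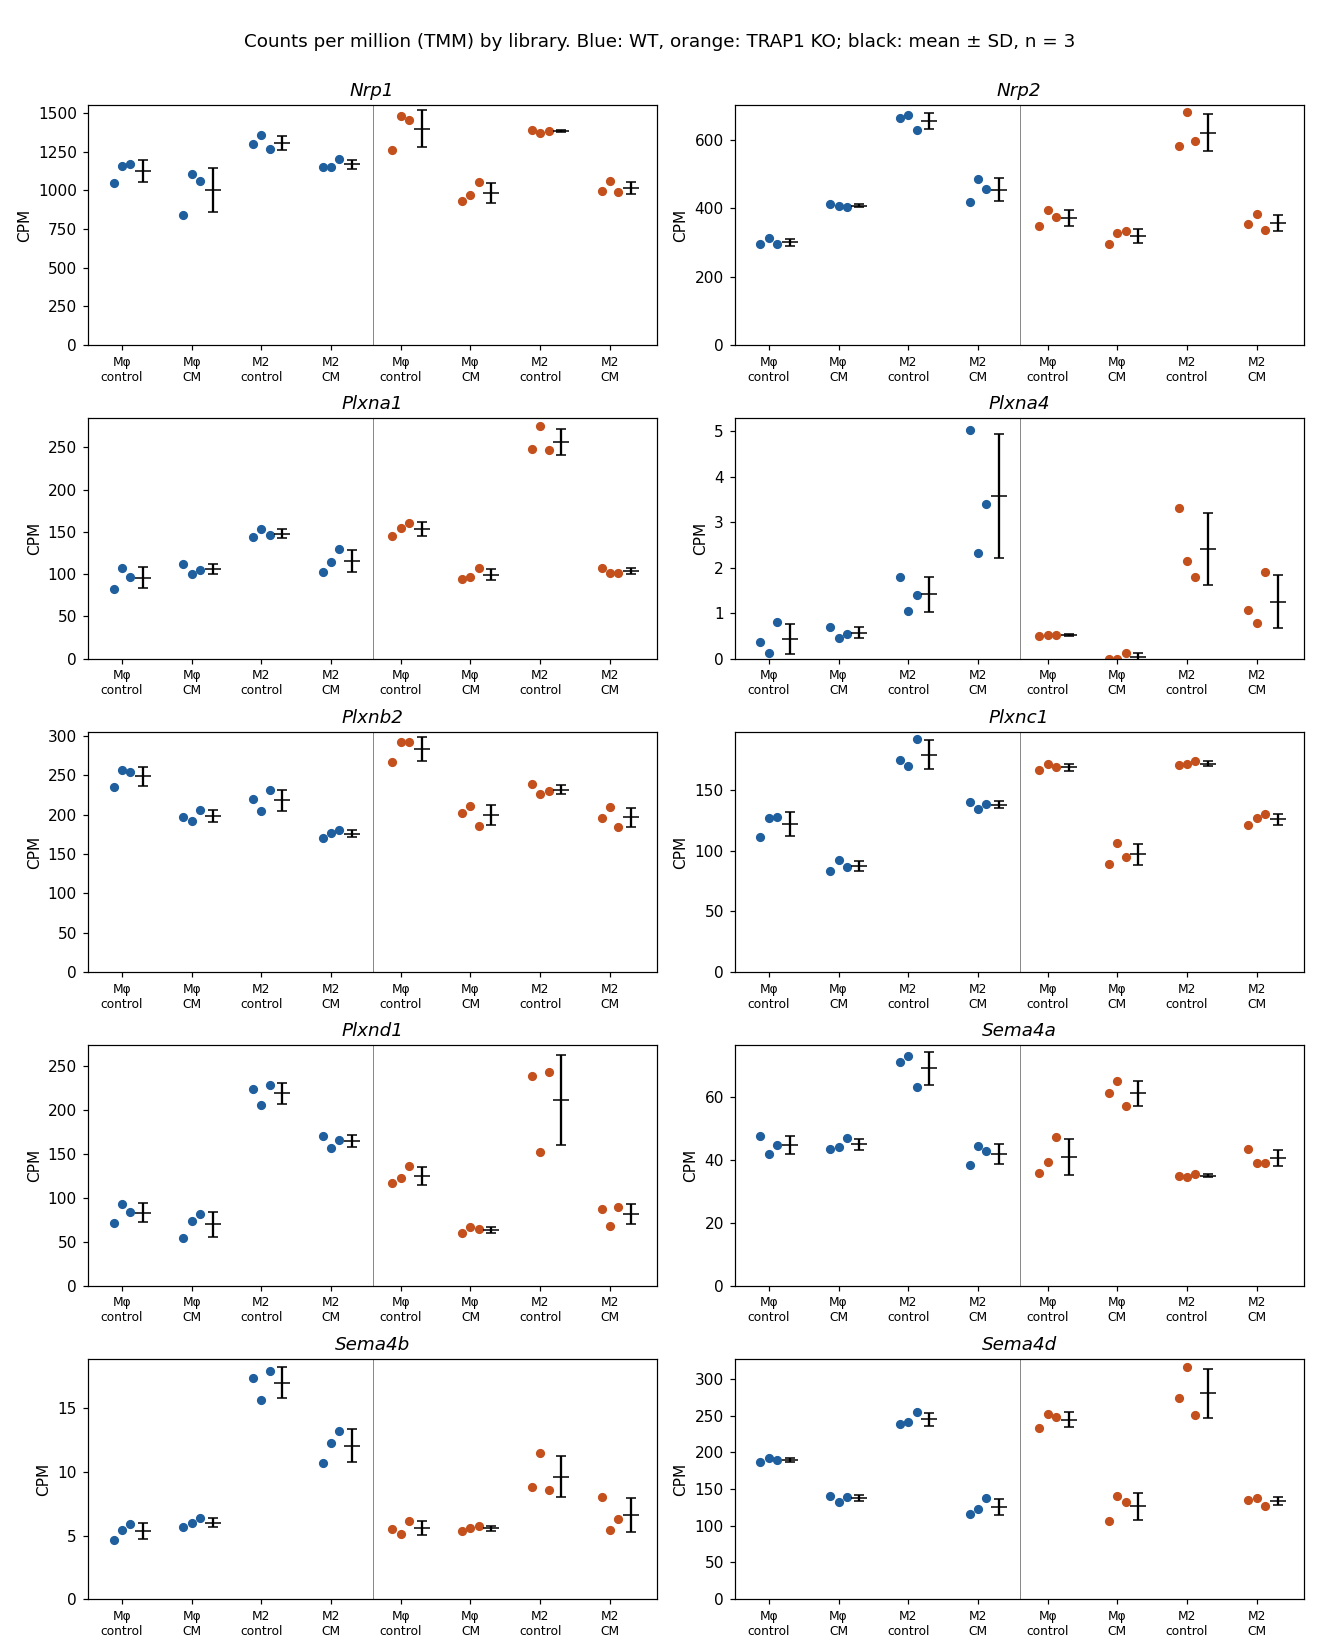
Normalised read counts (CPM, TMM scaling) in each of the 24 libraries (points; WT in blue, TRAP1 KO in orange), 1 panel per gene with its own axis from 0, for Mφ and M2 in control medium or MPNST-CM; black marks are the mean ± SD (n = 3). Sema4d lies lower in MPNST-CM than in control medium in all 4 pairs of groups, and Nrp2 lies higher in MPNST-CM in WT Mφ and lower in the other 3 pairs.

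The first comparison asked how M2 and Mφ differed in these 10 genes without MPNST-CM, after the 24 h with IL-4 and a further 48 h in control medium. In control medium all 10 genes differed between WT M2 and WT Mφ, 9 higher and 1 lower in M2, whereas 37.2% of the 13614 genes tested passed in this comparison (19.1% higher, 18.1% lower). The 9 include Plxna4, which passed the filter on low counts only through its M2 libraries. Its rise was favoured by that filter, so its call adds no support to any count of M2 against Mφ given here. The median log2 fold change of the 10 was 0.63, against -0.03 over all genes tested. Of 7 other plexins and semaphorins tested, 2 were higher and 2 lower in M2, so the rise of the 10 does not describe the whole family. In RNA from whole cultures, more cells of one kind and more RNA per cell cannot be told apart.

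Among the co-receptors, Nrp2 was measured at 296, 312 and 294 CPM in WT Mφ and at 663, 671 and 628 CPM in WT M2. The groups did not overlap, and the level was 2.18-fold higher in M2 (log2 fold change 1.12 ± 0.08 SE, edgeR adjusted p = 6.75e-12). Nrp1 moved little in comparison, from 1126 ± 70.8 CPM to 1307 ± 44.8 CPM (SD, n = 3), with a log2 fold change of 0.22 ± 0.09 and an adjusted p of 0.0497 in edgeR.

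Plxnd1, the receptor of Sema3e, showed the widest change among the plexins above 5 CPM. It was at 71.6, 93.3 and 84.0 CPM in WT Mφ and at 224, 205 and 228 CPM in WT M2. Every M2 library lay above every Mφ library, and the log2 fold change was 1.40 ± 0.16 (edgeR adjusted p = 1.4e-07). Plxna1, which binds class 6 semaphorins in complex with Trem2 and Tyrobp, rose from 95.5 ± 12.5 to 148 ± 5.09 CPM (log2 fold change 0.63), and Plxnc1, the receptor of Sema7a, rose from 122 ± 9.63 to 179 ± 11.8 CPM (0.55). Plxnb2, a receptor of Sema4d, was the single gene that fell, from 249 ± 11.9 to 219 ± 13.3 CPM (log2 fold change -0.19, edgeR adjusted p = 0.0479). Plxna4, a partner of neuropilins in Sema3a reception, was near the limit of detection, with 11 counts over the 3 WT Mφ libraries and 30 over the 3 WT M2 libraries, a ratio of 3.12 after library scaling (95% binomial interval 1.52 to 6.90, counting error only).

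All 3 class 4 semaphorins rose. Sema4b was at 4.66, 5.47 and 5.92 CPM in WT Mφ and at 17.4, 15.7 and 17.97 CPM in WT M2. The groups were far apart relative to their spread, with a log2 fold change of 1.66 ± 0.17 (edgeR adjusted p = 6.68e-09). Sema4a, a ligand of plexins of the B and D classes, was at 47.5, 41.8 and 44.5 CPM in WT Mφ and at 71.1, 73.1 and 63.0 CPM in WT M2, again without overlap (log2 fold change 0.63 ± 0.10, edgeR adjusted p = 9.33e-06). Sema4d (CD100) rose from 189.7 ± 2.77 to 245 ± 9.04 CPM (0.37 ± 0.09).

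The calls for Nrp1 and Plxnb2 were the least firm: they were lost on leaving out any of 19 and 16 of the 24 libraries, respectively. The Plxna4 call was lost without WT Mφ control replicate 1 (log2 fold change 1.51), without replicate 2 of that group (1.23) or without WT M2 control replicate 2 (1.41). Mast cell and basophil markers moved with IL-4, from a summed 0.245 to 1.56 CPM in the WT Mφ libraries to 6.16 to 7.90 CPM in the WT M2 libraries over 4 genes, and their part in these results was not tested. Of the endothelial markers, Vwf was at 14.3 ± 1.05 CPM in WT Mφ and 53.2 ± 5.38 CPM in WT M2. Kdr went the other way, from 18.5 ± 2.35 CPM in WT Mφ to 3.05 ± 0.509 CPM in WT M2. The 5 markers of IL-4 response, among them Arg1 and Retnla, rose from a sum of 755 to 800.4 CPM to a sum of 2870.3 to 2889 CPM.

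Without TRAP1, 6 of the 10 genes differed between M2 and Mφ in control medium, 5 higher and 1 lower (28.5% of genes tested passed, 15.6% higher and 12.9% lower). Nrp2 rose from 371 ± 24.2 to 619.7 ± 54.3 CPM (log2 fold change 0.74 ± 0.08, edgeR adjusted p = 2.55e-08), Plxna1 from 153 ± 8.10 to 256 ± 15.9 CPM (0.74 ± 0.09) and Sema4b from 5.60 ± 0.544 to 9.64 ± 1.63 CPM (0.79 ± 0.17). Plxnd1 rose to 239, 152 and 243 CPM from 117, 122 and 136 CPM, with 1 M2 library close to the Mφ range (log2 fold change 0.76 ± 0.15, edgeR adjusted p = 0.000516). Plxna4, kept by the filter only through its M2 libraries, also rose and Plxnb2 fell. Sema4a did not pass, with 35.9, 39.3 and 47.1 CPM in Mφ and 34.7, 34.5 and 35.4 CPM in M2.

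The difference between genotypes in this IL-4 response was tested as a comparison added after the data had been seen. It passed for 4 of the 10 genes, all with a smaller rise or a fall in TRAP1 KO, while 7.08% of genes tested passed (3.86% higher, 3.22% lower). For Sema4a the difference (TRAP1 KO minus WT, log2) was -0.85 ± 0.14 (edgeR adjusted p = 0.000178) and for Plxnc1 -0.53 ± 0.11 (adjusted p = 0.0021). Plxnc1 was at 169 ± 2.84 CPM in TRAP1 KO Mφ and at 172 ± 1.81 CPM in TRAP1 KO M2. For Sema4b the difference was -0.88 ± 0.24 and for Nrp2 -0.38 ± 0.11, and leaving out any of 6 or 9 libraries of the 24, respectively, ended these calls. The count fell to 2 without TRAP1 KO Mφ control replicate 3, WT Mφ control replicate 1, TRAP1 KO M2 control replicate 1 or 3, or WT M2 control replicate 2 or 4. It rose to 7 without the libraries that stood apart, with Nrp1 (-0.25), Plxnd1 (-0.41) and Sema4d (-0.29) added, where 13.6% of genes tested passed.

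The same contrast was made after exposure to MPNST-CM. In WT cells 4 of 10 were higher in M2 and none lower (24.9% of genes tested passed, 11.9% higher and 13% lower): Plxnd1 at 164 ± 7.17 against 69.7 ± 14.3 CPM (log2 fold change 1.24 ± 0.16), Sema4b at 12.1 ± 1.28 against 6.01 ± 0.344 CPM (1.00 ± 0.17), Plxnc1 at 138 ± 2.86 against 87.2 ± 4.41 CPM (0.66 ± 0.08) and Plxna4 with 86 counts against 15. In TRAP1 KO cells in MPNST-CM 3 of 10 differed, where 11.2% of genes tested passed (6.71% higher, 4.47% lower). Plxnc1 was higher in M2 (0.38 ± 0.08). Plxna4, with 0, 0 and 1 counts in the Mφ libraries, was not detectable there. It had 30 counts in M2 and 1 count in Mφ, a ratio of 29.7 with a counting interval of 4.94 to 1212. Leaving out the libraries that stood apart, 7 of 10 were called in WT cells, with Nrp1 (log2 fold change 0.18), Nrp2 (0.29) and Plxna1 (0.31) added, where 28.6% of genes tested passed. In TRAP1 KO cells Sema4a was lower in M2, at 43.4, 39.1 and 39.1 CPM against 61.2, 65.1 and 57.2 CPM in Mφ (-0.59 ± 0.10, edgeR adjusted p = 0.000115).

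**Figure D2:**
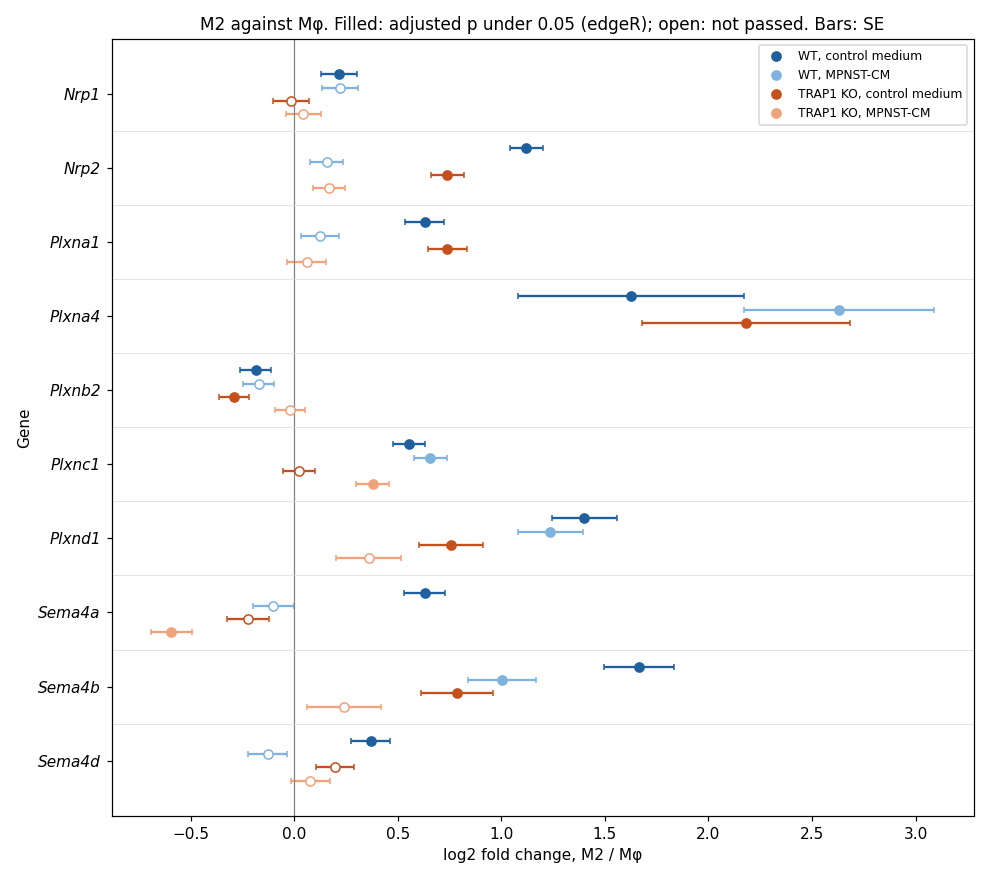
Log2 fold change of M2 against Mφ (horizontal axis) for the 10 genes in WT or TRAP1 KO cells in control medium or MPNST-CM, with bars of 1 SE; filled points passed an adjusted p of 0.05 in edgeR and open points did not. Nrp2, at 1.12 in WT control medium, stands at 0.16 in WT MPNST-CM; Plxna4 in TRAP1 KO cells in MPNST-CM is not drawn because 1 group held 1 count.

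The next comparison addressed the effect of MPNST-CM. In WT Mφ it moved 4 of the 10 genes, 1 up and 3 down, where 21.2% of genes tested passed (11.3% up, 9.96% down). In WT M2 it moved 8, 1 up and 7 down (24.5% of genes tested passed, 11.2% up and 13.3% down). The median log2 fold change of the 10 genes was -0.08 in WT Mφ and -0.40 in WT M2, against -0.02 and -0.03 over all genes tested. In WT M2, markers of mast cells and basophils went from 6.16 to 7.90 CPM in control medium to 2.52 to 5.61 CPM in MPNST-CM, and those of IL-4 response from 2870.3 to 2889 CPM to 4041 to 4244 CPM. In WT Mφ the latter went from 755 to 800.4 CPM to 1194 to 1374 CPM. Their part in the medium responses was not tested.

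Nrp2 moved in opposite directions in the 2 WT cell types. In WT Mφ it was at 296, 312 and 294 CPM in control medium and at 412, 407 and 402 CPM in MPNST-CM. In WT M2 it was at 663, 671 and 628 CPM in control medium and at 418, 485 and 456 CPM in MPNST-CM. Neither pair of groups overlapped, the log2 fold changes being 0.44 ± 0.08 (edgeR adjusted p = 0.000181) and -0.53 ± 0.08 (adjusted p = 8.08e-06). The difference between these responses was -0.97 ± 0.11 (cell type by medium interaction, edgeR adjusted p = 9.26e-07). After MPNST-CM, Nrp2 stood at 407 ± 4.78 CPM in WT Mφ and 453 ± 33.5 CPM in WT M2, a difference that did not pass (adjusted p = 0.154) and that passed without WT M2 MPNST-CM replicate 1, at a log2 fold change of 0.24. Nrp1 did not pass in either WT cell type, with log2 fold changes of -0.17 ± 0.09 and -0.16 ± 0.09.

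Sema4d fell in both WT cell types. In Mφ it went from 187, 193 and 189 CPM in control medium to 141, 133 and 139.5 CPM in MPNST-CM, and in M2 from 238, 241 and 255 CPM to 116, 123 and 138 CPM. The groups did not overlap, with log2 fold changes of -0.46 ± 0.09 (edgeR adjusted p = 0.00066) and -0.96 ± 0.09 (adjusted p = 1.07e-08). Its receptor gene Plxnb2 fell from 249 ± 11.9 to 198 ± 7.69 CPM in Mφ (-0.33 ± 0.07) and from 219 ± 13.3 to 176 ± 4.76 CPM in M2 (-0.31 ± 0.07). Plxnc1 fell from 122 ± 9.63 to 87.2 ± 4.41 CPM in Mφ (-0.48 ± 0.08) and from 179 ± 11.8 to 138 ± 2.86 CPM in M2 (-0.38 ± 0.08).

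Sema4a fell in WT M2 from 71.1, 73.1 and 63.0 CPM to 38.2, 44.4 and 42.8 CPM, a log2 fold change of -0.72 ± 0.10 (edgeR adjusted p = 2.63e-06). In WT Mφ the means were 44.6 ± 2.82 and 44.9 ± 1.88 CPM, and the ranges overlapped. The cell type by medium interaction for Sema4a was -0.73 ± 0.14 (adjusted p = 0.00066). In WT M2, Plxna1 fell from 148 ± 5.09 to 115 ± 13.3 CPM (-0.36 ± 0.09), Sema4b fell from 17.02 ± 1.20 to 12.1 ± 1.28 CPM (-0.49 ± 0.16), and Plxna4 rose from 30 to 86 counts, a ratio of 2.56 (95% binomial interval 1.67 to 4.01). Plxnd1, at 219 ± 12.2 and 164 ± 7.17 CPM, missed the threshold by little (-0.41 ± 0.15, adjusted p = 0.0512) although the libraries did not overlap.

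The interaction also passed for Plxna1 (-0.50 ± 0.13) and Sema4d (-0.50 ± 0.13), making 4 of 10 genes, all more negative in M2, where 12.1% of genes tested passed (5.23% positive, 6.91% negative). The count in WT M2 fell from 8 to 4 without WT M2 MPNST-CM replicate 1, which ended the calls for Plxna1, Plxna4, Plxnb2 and Sema4b, and to 5 without WT M2 control replicate 3; the interaction count fell to 2 without the former library. The Plxna1 call (at -0.28) and the Plxna4 call (at 1.19) were also lost without WT M2 control replicate 3, and the Plxnb2 call without replicate 4 of that group (-0.23). The Sema4b call was lost on leaving out any of 5 libraries, WT M2 MPNST-CM replicate 1 (-0.34), WT M2 control replicate 2 (-0.43), 3 (-0.50) or 4 (-0.41), or TRAP1 KO M2 control replicate 1 (-0.44). Leaving out the libraries that stood apart ended the calls for Plxna4 (1.09) and Sema4b (-0.35) in WT M2 and the interaction for Plxna1 (-0.23).

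Among cells lacking TRAP1, MPNST-CM moved 9 of 10 genes in Mφ, 1 up and 8 down (32.9% of genes tested passed, 14.8% up and 18.1% down). The 8 include Plxna4, which was not detectable in TRAP1 KO Mφ in MPNST-CM. It moved 8 of 10 in TRAP1 KO M2, all down (36.8% passed, 16.7% up and 20.2% down). The median log2 fold changes were -0.57 and -0.67, against -0.04 and -0.01 over all genes tested.

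In TRAP1 KO M2, Plxna1 was at 248, 275 and 246 CPM in control medium and at 107, 102 and 102 CPM in MPNST-CM. With no overlap, the log2 fold change was -1.31 ± 0.09 (edgeR adjusted p = 9.41e-12). In TRAP1 KO Mφ Plxna1 fell from 145, 155 and 161 CPM to 94.5, 96.2 and 107 CPM (-0.63 ± 0.09, adjusted p = 4.9e-06).

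Plxnd1 fell from 117, 122 and 136 CPM to 59.8, 66.4 and 64.3 CPM in TRAP1 KO Mφ (-0.98 ± 0.16, edgeR adjusted p = 2.77e-05) and from 239, 152 and 243 CPM to 86.8, 68.1 and 89.9 CPM in TRAP1 KO M2 (-1.37 ± 0.16, adjusted p = 1.78e-07). Every MPNST-CM library lay below every control library in both cell types. Sema4d fell from 234, 252 and 249 CPM to 106, 141 and 132 CPM in Mφ (-0.95 ± 0.09) and from 275, 317 and 251 CPM to 135, 138 and 127 CPM in M2 (-1.07 ± 0.09), which brought all 4 MPNST-CM groups to means between 126 and 138 CPM.

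Nrp1, which had not passed in WT cells, fell from 1398 ± 120.1 to 984 ± 64.3 CPM in TRAP1 KO Mφ (-0.51 ± 0.09, edgeR adjusted p = 3.13e-05) and from 1382 ± 8.04 to 1015 ± 40.3 CPM in TRAP1 KO M2 (-0.45 ± 0.09, adjusted p = 0.000139). Nrp2 fell from 619.7 ± 54.3 to 357 ± 23.2 CPM in M2 (-0.79 ± 0.08). Plxnc1 and Plxnb2 fell in both cell types, Plxnc1 by 0.80 and 0.45 and Plxnb2 by 0.51 and 0.24 on the log2 scale in Mφ and M2, respectively. Sema4b fell in M2 from 9.64 ± 1.63 to 6.61 ± 1.34 CPM (-0.55 ± 0.17).

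Sema4a was the single gene that rose, from 35.9, 39.3 and 47.1 CPM to 61.2, 65.1 and 57.2 CPM in TRAP1 KO Mφ (0.59 ± 0.10, edgeR adjusted p = 3.04e-05). In TRAP1 KO M2 it went from 34.9 ± 0.485 to 40.5 ± 2.47 CPM, which did not pass (adjusted p = 0.101). Plxna4 was at 12 counts in the 3 control libraries of TRAP1 KO Mφ and at 1 count in the 3 MPNST-CM libraries, a ratio of 0.0804 with a counting interval of 0.00188 to 0.544. The markers of IL-4 response were also higher in TRAP1 KO Mφ in MPNST-CM, at a sum of 2642 to 2759.9 CPM against 834 to 909 CPM in control medium, and their part in these values was not tested.

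The Nrp2 call in TRAP1 KO Mφ, from 371 ± 24.2 to 318 ± 20.4 CPM (log2 fold change -0.22 ± 0.08), was lost on leaving out any of 10 of the 24 libraries. The Plxna4 call was lost without TRAP1 KO Mφ MPNST-CM replicate 2 and without the libraries that stood apart, and the gene could not be tested when the 2 groups were fitted alone. In TRAP1 KO M2 the Plxnb2 call was lost without MPNST-CM replicate 3 (-0.20) or control replicate 1 (-0.19), and the Sema4b call without MPNST-CM replicate 2 (-0.42), control replicate 2 (-0.39) or the libraries that stood apart (-0.42). In TRAP1 KO M2, markers of mast cells and basophils went from 2.28 to 3.17 CPM in control medium to 0.452 to 0.926 CPM in MPNST-CM and Schwann cell markers from 6.34 to 8.26 CPM to 1.32 to 2.71 CPM; their part in these values was not tested.

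**Figure D3:**
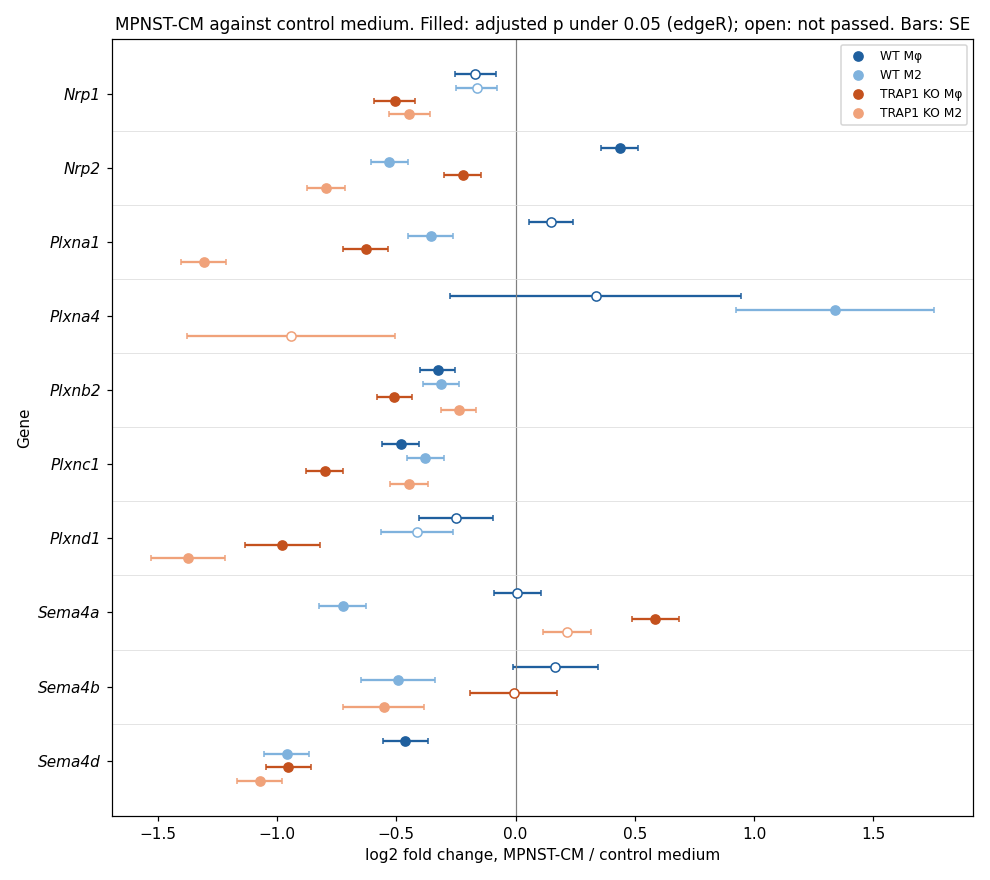
Log2 fold change of MPNST-CM against control medium (horizontal axis) for the 10 genes in each genotype and cell type, with bars of 1 SE; filled points passed an adjusted p of 0.05 in edgeR and open points did not. Plxnb2, Plxnc1 and Sema4d are negative with filled points in all 4 backgrounds, Nrp2 is at 0.44 in WT Mφ, and Plxna4 in TRAP1 KO Mφ is not drawn because 1 group held 1 count.

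Whether TRAP1 loss altered the response to MPNST-CM was tested by the genotype by medium interaction. In Mφ it passed for 8 of 10 genes, 1 positive and 7 negative in TRAP1 KO relative to WT (19.7% of genes tested passed, 8.17% positive and 11.5% negative), and in M2 for 4 of 10, 1 positive and 3 negative (20.2% passed, 9.36% positive and 10.8% negative). Plxna1 had an interaction of -0.78 ± 0.13 in Mφ (edgeR adjusted p = 7.46e-05) and -0.95 ± 0.13 in M2 (adjusted p = 4.47e-06). For Plxnd1 the values were -0.73 ± 0.22 in Mφ (adjusted p = 0.0214) and -0.96 ± 0.22 in M2 (adjusted p = 0.00241).

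Sema4a went the other way in both cell types, with an interaction of 0.58 ± 0.14 in Mφ (edgeR adjusted p = 0.00337) and 0.94 ± 0.14 in M2 (adjusted p = 1.57e-05). Nrp2 passed in Mφ (-0.66 ± 0.11, adjusted p = 6.21e-05) and not in M2 (-0.27 ± 0.11, adjusted p = 0.0926). Sema4d passed in Mφ (-0.49 ± 0.13) and not in M2 (-0.11 ± 0.13). Nrp1 (-0.28) and Plxnc1 (-0.07) did not pass in M2 either. Plxna4 passed in both, on the low counts given above. For Plxnb2 and Sema4b no difference between genotypes in the response was detected, with interactions between -0.18 and 0.08.

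In Mφ the calls for Nrp1 (-0.34 ± 0.12) and Plxnc1 (-0.32 ± 0.11) were lost on leaving out any of 21 and 18 of the 24 libraries, and those for Plxna4 and Plxnd1 on leaving out any of 6 and 4. Without the libraries that stood apart, the calls for Plxna4 and Plxnc1 (-0.27) were lost. The count of 8 fell to 4 without TRAP1 KO Mφ MPNST-CM replicate 1, TRAP1 KO Mφ control replicate 3 or WT Mφ control replicate 1, and to 5 without WT Mφ MPNST-CM replicate 3 or when the 4 groups compared were fitted alone.

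Compared directly in control medium, TRAP1 KO Mφ had 6 of the 10 genes higher than WT Mφ and none lower (16.6% of genes tested passed, 8.64% higher and 7.97% lower). Of 7 other plexins and semaphorins tested, 1 was higher and 1 lower. Plxna1 was at 145, 155 and 161 CPM in TRAP1 KO and at 82.4, 107 and 96.7 CPM in WT. The groups did not overlap (log2 fold change 0.68 ± 0.09, edgeR adjusted p = 4.83e-06). Plxnd1 was 1.51-fold higher (0.59 ± 0.16), Plxnc1 1.38-fold (0.47 ± 0.08), Sema4d 1.29-fold (0.37 ± 0.09), and Nrp1 and Nrp2 each 1.24-fold. The Nrp1 call was lost without TRAP1 KO Mφ control replicate 2 or 3, WT Mφ control replicate 1, TRAP1 KO M2 control replicate 1 or WT M2 control replicate 2, at log2 fold changes between 0.26 and 0.28. The call for Nrp2 was lost without TRAP1 KO Mφ control replicate 2 (0.26) and that for Plxnd1 without WT Mφ control replicate 1 (0.50).

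In M2 in control medium 3 of the 10 genes differed between genotypes, 1 higher and 2 lower in TRAP1 KO (16.4% of genes tested passed, 8.56% higher and 7.87% lower). Plxna1 was higher in TRAP1 KO, at 248, 275 and 246 CPM against 144, 153 and 146 CPM (log2 fold change 0.79 ± 0.09, edgeR adjusted p = 6.12e-07). Sema4a was lower, at 34.7, 34.5 and 35.4 CPM against 71.1, 73.1 and 63.0 CPM (-0.98 ± 0.10, adjusted p = 6.32e-08). Sema4b was lower as well, at 8.86, 11.5 and 8.55 CPM against 17.4, 15.7 and 17.97 CPM (-0.82 ± 0.16, adjusted p = 0.000615). None of these 3 pairs of groups overlapped. Nrp2, Plxnc1 and Plxnd1 did not pass, with log2 fold changes between -0.08 and -0.05. Markers of mast cells and basophils were also lower in TRAP1 KO M2, at 2.28 to 3.17 CPM against 6.16 to 7.90 CPM in control medium and at 0.452 to 0.926 CPM against 2.52 to 5.61 CPM in MPNST-CM, and their part in the genotype differences in M2 was not tested.

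In Mφ in MPNST-CM 3 of 10 passed, 1 higher and 2 lower, where 38.2% of all genes tested passed (19.1% higher, 19.2% lower): Nrp2 was lower in TRAP1 KO, at 295, 327 and 333 CPM against 412, 407 and 402 CPM (log2 fold change -0.35 ± 0.08, edgeR adjusted p = 0.000693), and Sema4a was higher, at 61.2, 65.1 and 57.2 CPM against 43.5, 44.03 and 47.01 CPM (0.45 ± 0.10, adjusted p = 0.000654). Plxna4 had 1 count against 15, a ratio of 0.0736 with a counting interval of 0.00175 to 0.478, a call that was lost without the libraries that stood apart. Plxna1, Plxnb2 and Sema4d did not pass, with log2 fold changes between -0.12 and 0.01.

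In M2 in MPNST-CM 4 of 10 were lower in TRAP1 KO and none higher (34% of genes tested passed, 17.2% higher and 16.8% lower). Plxnd1 was at 86.8, 68.1 and 89.9 CPM against 171, 157 and 166 CPM in WT (log2 fold change -1.01 ± 0.16, edgeR adjusted p = 1.87e-05). Sema4b was at 8.07, 5.42 and 6.33 CPM against 10.7, 12.3 and 13.2 CPM (-0.87 ± 0.17, adjusted p = 0.000153). Nrp2 was at 354, 382 and 336 CPM against 418, 485 and 456 CPM (-0.34 ± 0.08, adjusted p = 0.00111). The TRAP1 KO libraries lay below all WT libraries for these genes. Plxna4 had 30 counts against 86, a ratio of 0.346 (95% binomial interval 0.220 to 0.530). These 4 calls held on leaving out any single library. Without the libraries that stood apart, 7 of 10 were lower, with Nrp1 (-0.29), Plxna1 (-0.31) and Plxnc1 (-0.19) added, where 44% of genes tested passed. Nrp1 missed the threshold (-0.20 ± 0.09, adjusted p = 0.0708) and passed on leaving out any of 8 libraries.

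**Figure D4:**
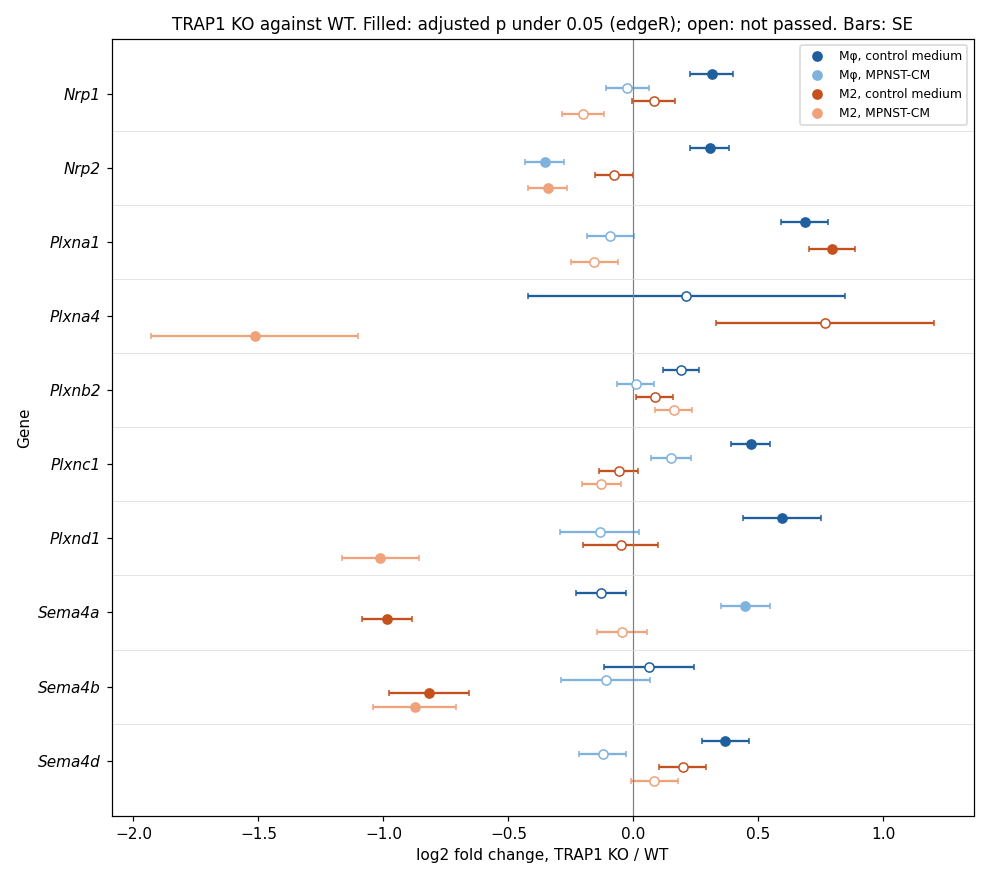
Log2 fold change of TRAP1 KO against WT (horizontal axis) for the 10 genes in Mφ or M2, in control medium or MPNST-CM, with bars of 1 SE; filled points passed an adjusted p of 0.05 in edgeR and open points did not. Plxna1 is at 0.68 and 0.79 in control medium (filled) and at -0.09 and -0.16 in MPNST-CM (open), and Plxnd1 in M2 is at -1.01 in MPNST-CM; Plxna4 in Mφ in MPNST-CM is not drawn because 1 group held 1 count.

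Over the 8 groups the ratio of the highest to the lowest group mean was 1.42 for Nrp1, 1.61 for Plxnb2, 1.98 for Sema4a, 2.05 for Plxnc1, 2.18 for Nrp2, 2.23 for Sema4d, 2.68 for Plxna1, 3.18 for Sema4b and 3.45 for Plxnd1. Nrp2, Plxnc1, Plxnd1, Sema4a and Sema4b were highest in WT M2 in control medium. Plxna1 and Sema4d were highest in TRAP1 KO M2 in control medium, Nrp1 and Plxnb2 in TRAP1 KO Mφ in control medium, and Plxna4 in WT M2 in MPNST-CM. Neighbours in these orders often overlapped: in Nrp1 the highest group and the next overlapped, as in Nrp2, Plxnc1, Plxnd1, Sema4a and Sema4d, whereas the highest group stood clear of the next in Plxna1, Plxnb2 and Sema4b. Across the 8 group means Nrp1 and Plxnc1 varied most alike (Pearson's r = 0.92) and Plxna4 and Sema4a least (r = -0.41), as a description over 8 points that share libraries.

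Of the other 21 plexins and semaphorins examined, 7 were abundant enough to be tested and 5 reached 5 CPM in some group. Plxna2, a class A plexin, was higher in TRAP1 KO in control medium, at 31.4 ± 3.25 against 17.8 ± 2.79 CPM in Mφ (log2 fold change 0.82 ± 0.15, edgeR adjusted p = 0.000184) and at 21.96 ± 0.777 against 12.5 ± 0.507 CPM in M2 (0.81 ± 0.16, adjusted p = 0.00056). It fell in MPNST-CM in TRAP1 KO Mφ, to 11.1 ± 1.44 CPM (-1.50 ± 0.15). Sema6d, a ligand of Plxna1, rose with IL-4 in WT cells from 1.27 ± 0.589 to 7.50 ± 1.23 CPM (2.52 ± 0.38) and was at 1.15 ± 0.509 CPM in TRAP1 KO M2 in control medium (-2.67 ± 0.39 against WT M2).

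Sema3c, a class 3 ligand of neuropilin complexes, rose with MPNST-CM in WT M2 from 2.85 ± 1.20 to 6.86 ± 1.28 CPM (log2 fold change 1.26 ± 0.29) and in TRAP1 KO M2 from 1.87 ± 0.190 to 6.34 ± 0.140 CPM (1.75 ± 0.31). Sema4c was higher in TRAP1 KO M2 than in WT M2 in control medium, at 29.8 ± 1.18 against 19.5 ± 2.44 CPM (0.61 ± 0.15). Sema6b was lower in TRAP1 KO in MPNST-CM, at 6.47 ± 1.36 against 9.56 ± 0.715 CPM in Mφ (-0.56 ± 0.19). By comparison, MPNST-CM moved 0 of these 7 genes in WT Mφ (edgeR, 0 also at an unadjusted p under 0.05), 1 in WT M2, and 4 and 3 in their TRAP1 KO counterparts, where 21.2%, 24.5%, 32.9% and 36.8% of all genes tested passed in that order.

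Of 21 genes for VEGF ligands, co-receptors, binding partners and shedding enzymes, 16 were tested. With MPNST-CM 4 of the 16 rose and 4 fell in WT Mφ (21.2% of all genes tested passed), 4 rose and 7 fell in WT M2 (24.5%), and in cells lacking TRAP1 3 rose and 7 fell in Mφ (32.9%) and 3 rose and 10 fell in M2 (36.8%). Flt1, the VEGF receptor VEGFR1, rose with IL-4 in WT control medium from 5.25 ± 0.963 to 536 ± 24.5 CPM (log2 fold change 6.68 ± 0.15) and fell with MPNST-CM in WT M2 to 94.7 ± 9.31 CPM and in TRAP1 KO M2 from 149 ± 6.15 to 9.74 ± 1.45 CPM. Kdr, the receptor VEGFR2, rose with MPNST-CM in WT M2 from 3.05 ± 0.509 to 23.9 ± 4.58 CPM (2.95 ± 0.17) and in TRAP1 KO M2 from 4.33 ± 0.918 to 42.9 ± 1.05 CPM (3.30 ± 0.16). Vegfa, a ligand of both and of Nrp1, was higher in TRAP1 KO than in WT Mφ in MPNST-CM, at 288 ± 30.5 against 26.4 ± 4.29 CPM (3.44 ± 0.12), and in M2 in MPNST-CM, at 217 ± 1.49 against 81.9 ± 6.85 CPM (1.41 ± 0.11). Kdr is also one of the endothelial markers given above.

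Further partners moved by cell type and medium. Itga1, a subunit of an integrin receptor of Sema7a, rose with MPNST-CM in all 4 backgrounds, by log2 fold changes between 1.88 and 5.30. The largest, in TRAP1 KO Mφ, started near the limit of detection, at 0.434 ± 0.647 CPM (0 to 9 counts) in control medium. Mmp14, a membrane protease, fell with MPNST-CM in WT M2 from 21.7 ± 3.04 to 5.14 ± 0.671 CPM (-2.08 ± 0.20). Met, a receptor that associates with class B plexins, rose with IL-4 in WT control medium from 1.59 ± 0.237 to 12.5 ± 2.46 CPM (2.97 ± 0.34). L1cam, an adhesion molecule that associates with Nrp1, had lower levels without TRAP1 in MPNST-CM, in Mφ (-1.34 ± 0.21) and in M2 (-1.36 ± 0.21). Cd72, a receptor of Sema4d, was lower in TRAP1 KO M2 than in WT M2 in control medium, at 3.41 ± 1.47 against 11.3 ± 0.889 CPM.

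Downstream of the receptors, 27 of 30 listed signalling genes were tested, and MPNST-CM moved 6 in WT Mφ (21.2% of all genes tested passed), 10 in WT M2 (24.5%), and 9 and 14 in Mφ and M2 lacking TRAP1 (32.9% and 36.8%), with medians over the list between -0.01 and 0.05. Mras, a small GTPase of the Ras family, fell with MPNST-CM in all 4 backgrounds, by log2 fold changes between -3.01 and -1.06. Mical1, an oxidoreductase that acts on actin downstream of plexins, fell in WT M2 from 69.6 ± 4.10 to 36.1 ± 2.28 CPM (-0.94 ± 0.11) and in TRAP1 KO M2 from 70.9 ± 7.04 to 28.6 ± 1.80 CPM (-1.31 ± 0.11). Rnd3, a small GTPase, was higher in TRAP1 KO than in WT in MPNST-CM, at 39.4 ± 5.30 against 15.6 ± 1.49 CPM in Mφ and at 21.6 ± 2.36 against 9.48 ± 3.87 CPM in M2. Rap1b, a GTPase that plexins inactivate, was higher in TRAP1 KO in MPNST-CM, in Mφ (0.56 ± 0.09) and in M2 (0.77 ± 0.09). Pak1, a kinase activated by Rac, was lower in both (-1.03 ± 0.12 and -0.76 ± 0.12).

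For each of the 10 genes, the genes closest in pattern were taken as those with the highest Pearson's r over the 8 group means, among 10583 candidates and with no test. Nrp2 was closest to Lat2 (r = 0.99), Plxnb2 to Phf8 (0.99), Plxnd1 to Gm35113 (0.99), Sema4b to Il31ra (0.99) and Sema4d to Adcy9 (0.99). Nrp1 was closest to Ppp2r3d (0.98), Plxna1 to Ptdss2 (0.97), Plxnc1 to Adam19 (0.97), Sema4a to Tomm22 (0.97) and Plxna4 to Gtf2a1 (0.97). With 8 points and so many candidates, values of this size describe these groups only.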

How the data were processed

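Gene expression was measured by 3′ RNA-seq (QuantSeq) in 27 libraries of mouse BMDMs. The authors trimmed the reads with Trimmomatic, mapped them with HISAT2, kept a mapping quality of at least 20 with SAMtools and counted reads per gene with featureCounts; the raw counts were deposited without normalization, on mm39 per the labels (the study's methods name mm10; versions are not given in the sources used here). Of the 32 columns, 5 could not be tied to a described library and were left out.

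Libraries were grouped by their labels, and the 24 of batch 1 entered the tests. The 13614 genes that passed the low-count filter of edgeR 4.0.16 (filterByExpr, minimum count 10; limma 3.58.1, R 4.3.3) were fitted with TMM scaling and a quasi-likelihood model over 8 groups, and p-values were Benjamini-Hochberg adjusted over all of them, with calls under 0.05. CPM values use TMM library sizes of the 24 libraries. Those for Xist and for the batch 2 libraries use the sizes of all 27 libraries. Replicates differed beyond counting noise in all 24 pairs; 6 libraries stood apart, both of their pairs having at least 2 times the chi-square of the remaining pair. With 3 libraries of 7037684 to 9089792 counts each, genes under 3 counts were taken as not detectable.

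The 10 genes and the lists were chosen with earlier results of these data known. All 10 are named throughout; of the other family members those reaching 5 CPM, of the partner and signalling lists the 4 largest called changes per comparison. The genotype by cell type comparison was added after the data had been seen. DESeq2 1.42.0, its size factors, other sample sets, no filter, a replicate block, each library left out and, added after the data had been seen, those 6 left out were the alternatives. The fit was tried on simulated independent libraries with 4-fold changes, none of them standing apart. That run does not speak for smaller changes or for the spread between the real libraries.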

Additional observations from a re-analysis of the deposited data

Results flagged for a closer look

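In 6 of 30 groups of 4 libraries (1.5 are flagged by chance), the batch 2 library of TRAP1 KO M2 lay far from the other 3. Values here use the scaling of all 27 libraries and so differ slightly from those above. In control medium the batch 2 library was at 771 CPM for Nrp1 (others 1345 to 1364), 123 CPM for Plxnc1 (167 to 171) and 58.4 CPM for Sema4a (33.8 to 34.9). In MPNST-CM it was at 162 CPM for Plxna1 (101 to 107), 76.7 CPM for Sema4a (38.9 to 43.3) and 209.6 CPM for Sema4d (127 to 138). Both of these libraries also hold Xist (404 CPM in control medium and 308 CPM in MPNST-CM), at most 1.14 CPM of which was found in a batch 1 TRAP1 KO library. Its relation to these values was not tested.

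The response to MPNST-CM differed between genotypes in Mφ, by interaction test, for Nrp1 (-0.34, log2), Nrp2 (-0.66), Plxna1 (-0.78), Plxna4 (-3.55, on 1 to 15 counts per group), Plxnc1 (-0.32), Plxnd1 (-0.73), Sema4a (0.58) and Sema4d (-0.49), and in M2 for Plxna1 (-0.95), Plxna4 (-2.28), Plxnd1 (-0.96) and Sema4a (0.94). Between WT M2 and WT Mφ it differed for Nrp2 (-0.97), Plxna1 (-0.50), Sema4a (-0.73) and Sema4d (-0.50). The IL-4 response in control medium differed between genotypes for Nrp2 (-0.38), Plxnc1 (-0.53), Sema4a (-0.85) and Sema4b (-0.88).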

How the results depend on the processing

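No value for any of the 10 genes that passed the test changed direction under any alternative, and 66 of 88 calls held in every planned fit of batch 1, single libraries left out included. Adding the 3 batch 2 libraries, without and with batch as a covariate, moved the number of the 10 genes called in most comparisons. For MPNST-CM it became 2 and 2 in TRAP1 KO M2 (from 8), 1 and 3 in WT M2 (8) and, with the covariate, 2 in WT Mφ (4). For TRAP1 KO against WT it became 1 and 1 in Mφ in MPNST-CM (3), 0 and 1 in Mφ in control medium (6) and 1 and 1 in M2 in MPNST-CM (4). For M2 against Mφ in TRAP1 KO control medium it became 3 and 3 (6). The interactions became 0 and 1 (genotype by medium, Mφ, from 8), 0 and 2 (M2, from 4), 0 and 0 (cell type by medium, from 4) and 0 and 0 (genotype by cell type, from 4). Of 160 values, 88 had a call in the main fit. Of these 88, 55 and 50 lost their call, and 0 other values gained one. In a fit chosen after seeing the data, of 25 libraries without the 2 TRAP1 KO M2 libraries of batch 2, 8 lost it and 1 gained it. Leaving out the 6 batch 1 libraries that stood apart, also chosen after seeing the data, 8 lost it and 17 gained it, and the number called became 7 for TRAP1 KO against WT in M2 in MPNST-CM (from 4), 7 for M2 against Mφ in WT MPNST-CM (from 4) and 7 for the genotype by cell type interaction (from 4). The 4 groups of the genotype by medium comparison in Mφ, fitted alone, gave 5 of 8.

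Leaving out 1 library at a time, MPNST-CM moved 4 to 4 genes in WT Mφ, 4 to 9 in WT M2, 8 to 9 in TRAP1 KO Mφ and 7 to 8 in TRAP1 KO M2. TRAP1 KO differed from WT in 3 to 3 and 4 to 6 genes (Mφ in MPNST-CM and control medium) and in 4 to 6 and 3 to 3 (M2). M2 differed from Mφ in 7 to 10 (WT) and 6 to 7 (TRAP1 KO) genes in control medium, and in 4 to 5 and 3 to 3 in MPNST-CM. The interactions gave 4 to 7 and 4 to 5 (genotype by medium, Mφ and M2), 2 to 4 (cell type by medium) and 2 to 5 (genotype by cell type). The libraries that moved a count by over 1.5 times are named with the results.

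Same-numbered libraries deviated together in part. Their mean r was 0.135 over 77 pairs (36 of them over 0.1, highest 0.632), against -0.05 over 175 other pairs. For 11 of 23 libraries the mean r was highest with their own number. Most libraries that stood apart were replicate 1, and whether these share an origin was not tested. The main fit did not use the numbers. The replicate block (edgeR), which did, lost Nrp1 for IL-4 in WT control medium (adjusted p = 0.0564), Plxna4 (0.0809) and Sema4b (0.0939) for MPNST-CM in WT M2, and Sema4b for genotype by cell type (0.0695). These lost calls all involve WT M2 in control medium. Only its replicate 4 carried that number in batch 1, so the block in effect left that library out. The block gained 3 calls for Nrp1, for TRAP1 KO against WT in M2 in MPNST-CM (0.0246), M2 against Mφ in WT MPNST-CM (0.0156) and genotype by medium in M2 (0.0422). DESeq2 lost 2 and gained 4. Median-of-ratios scaling moved the median of all genes by at most 0.04 (log2). Depth limits Plxna4, at up to 5.03 CPM.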
